A study of Mus musculus with 8 samples.

Results

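The genes of the major histocompatibility complex (MHC) and of antigen processing were compared between hematopoietic stem cells (HSCs) of control and Atg12 conditional knockout mice. Members were all genes of the deposited table whose symbol starts with H2- (the mouse MHC), together with B2m, Tap1, Tap2, Tapbp, Psmb8, Psmb9, Psmb10, Nlrc5, Ciita, Cd74 and Erap1. This gave 51 of the 24213 genes measured, 38 of them class I, 12 class II and 1, H2-Ke6, an enzyme gene of the region that is no MHC molecule. The 4 control mice were C57BL/6 with floxed Atg12 alleles (Atg12flox/flox), and the 4 knockout mice carried Mx1-Cre in addition. Mx1-Cre is a recombinase gene under an interferon-inducible promoter. Mice of both groups had received poly(I:C), an interferon inducer, at 4 weeks of age. Cells of individual mice were sorted 2 to 3 months later, at 3 to 4 months of age, in 2 rounds, as lineage-negative c-Kit+/Sca-1+ bone marrow cells that were CD150+ and lacked Flk2 and CD48. The controls carried no Cre, so Cre and loss of Atg12 cannot be told apart, and Mx1-Cre is not restricted to HSCs.

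Class I molecules, made of a heavy chain and beta-2-microglobulin, show peptides from inside the cell to CD8 T cells and are found on nearly all nucleated cells. Their peptides are cut by the proteasome, carried into the endoplasmic reticulum by TAP, trimmed by ERAP1 and loaded with the help of tapasin. Class II molecules show peptides of endosomal origin to CD4 T cells and are made mainly by B cells, dendritic cells and macrophages, with lower amounts known on some blood progenitors. Interferon raises class I genes in most cells, NLRC5 is the transactivator of class I genes, and CIITA is that of class II genes. Autophagy is known to deliver cell contents to class II compartments.

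Promoter windows from RefSeq (GRCm38.p6; 250 bases before to 50 after the start) were found for 35 of the 51 members. They are shown for some of the genes on which the results below turn, because class I and class II promoters are read through a shared set of boxes. H2-Ab1 and Cd74 had no window and were not searched. Capitals mark 3 motifs searched on both strands, namely GAAA followed after 2 bases of any kind by GAAA (an interferon response element core), TGACG (the core of the X2 box) and CCAAT or its complement ATTGG (the Y box). Matches on the opposite strand appear as the reverse complement, and overlapping matches were allowed. The windows of H2-T22 and Tap1 are shown in full, and the others without the bases farthest upstream. For Psmb9, which starts on the other strand, 275 of the 300 bases are those of the Tap1 window.
H2-K1 (chr17:34000284-34000483, minus strand): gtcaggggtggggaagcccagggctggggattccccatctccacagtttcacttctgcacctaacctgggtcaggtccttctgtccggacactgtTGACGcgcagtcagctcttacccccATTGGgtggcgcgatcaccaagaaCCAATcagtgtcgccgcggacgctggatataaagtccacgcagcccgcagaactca
H2-D1 (chr17:35262944-35263143, plus strand): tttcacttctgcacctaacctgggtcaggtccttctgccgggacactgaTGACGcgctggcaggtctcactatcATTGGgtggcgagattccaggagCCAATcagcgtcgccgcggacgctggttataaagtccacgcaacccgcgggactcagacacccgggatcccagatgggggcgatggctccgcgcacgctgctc
B2m (chr2:122147537-122147736, plus strand): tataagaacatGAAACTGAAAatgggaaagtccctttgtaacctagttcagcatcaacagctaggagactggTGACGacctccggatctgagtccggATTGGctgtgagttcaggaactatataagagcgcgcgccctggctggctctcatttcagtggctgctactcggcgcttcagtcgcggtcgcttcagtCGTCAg
H2-Aa (chr17:34287774-34287973, minus strand): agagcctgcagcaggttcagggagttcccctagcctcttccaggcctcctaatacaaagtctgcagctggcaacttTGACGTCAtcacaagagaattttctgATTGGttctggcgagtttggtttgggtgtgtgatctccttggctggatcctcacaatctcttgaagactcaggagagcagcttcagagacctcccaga
H2-Eb1 (chr17:34305717-34305916, plus strand): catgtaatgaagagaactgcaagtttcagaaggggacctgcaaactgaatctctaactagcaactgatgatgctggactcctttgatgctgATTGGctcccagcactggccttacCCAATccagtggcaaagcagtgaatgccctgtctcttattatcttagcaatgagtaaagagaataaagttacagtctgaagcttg
H2-T22 (chr17:36042693-36042992, minus strand): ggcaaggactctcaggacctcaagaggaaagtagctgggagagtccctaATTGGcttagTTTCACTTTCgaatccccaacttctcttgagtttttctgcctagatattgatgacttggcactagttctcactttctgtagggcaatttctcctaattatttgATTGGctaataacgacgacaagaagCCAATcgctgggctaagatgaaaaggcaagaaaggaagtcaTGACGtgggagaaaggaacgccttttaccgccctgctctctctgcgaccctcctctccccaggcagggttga
Tap1 (chr17:34187306-34187605, plus strand): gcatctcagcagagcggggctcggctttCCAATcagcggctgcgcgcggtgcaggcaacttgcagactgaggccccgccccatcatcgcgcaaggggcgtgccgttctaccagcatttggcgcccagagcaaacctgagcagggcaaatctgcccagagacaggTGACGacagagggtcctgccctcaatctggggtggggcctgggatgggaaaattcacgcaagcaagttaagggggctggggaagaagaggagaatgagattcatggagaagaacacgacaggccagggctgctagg
In H2-K1, H2-D1 and B2m the TGACG match was followed 25 bases further on by ATTGG, counted from first base to first base, and in H2-Aa by 26 bases, with TGACG lying in a palindrome that matches on both strands. This spaced arrangement was looked for after the windows were read. It was present in 54 of 32851 windows, or 0.164%, and in 5 of the 35 members, the other being H2-M3. TGACG was present in 20.8% of all windows and in 14 of 27 class I and 1 of 7 class II members. The Y box letters were present in 37.4% of all windows, in 21 of 27 class I members and in 7 of 7 class II members. The interferon element core was present in 3.44% of all windows, in 3 of 27 class I members (B2m, H2-T22 and Erap1) and in 0 of 7 class II members. The search took exact letters only, so a window without a match, such as those of H2-K1 and H2-D1, was not shown to lack such an element. A match is a description of letters and not evidence of a bound factor.

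Values are log2 signals of 8 arrays, 1 array per mouse. Atg12, the targeted gene, read 6.37 to 6.55 in controls and 5.35 to 5.66 in knockouts. A gene was taken as above the level of absent transcripts when its mean exceeded 3.20, the highest signal of Xist or Y-linked genes on arrays that should lack them, and 33 of the 51 members were above it (23 class I, 9 class II and H2-Ke6). Sex-linked signal was unevenly spread over the groups. Control 4 and knockouts 1 and 2 had Xist signal without Y-linked signal, controls 1 to 3 and knockout 3 the reverse, and knockout 4 had both. On knockout 4 Xist read 8.12 and the Y-linked genes 5.83 on average. Whether that array holds RNA of 1 mouse alone was not tested, and it is counted as 1 mouse throughout. Of 9 HSC markers 7 were above the level, Kit at 8.50 among them, while Slamf1 (CD150, used in the sort) and Mecom did not reach it. Ly6a, which encodes the sort marker Sca-1, differed by 0.65 (SE 0.20) and Hoxb5 by 0.31 (SE 0.14), neither past the test. No member passed an adjusted p of 0.05 (limma with Benjamini-Hochberg adjustment over all genes), where 0.00413% of all genes passed as lower and 0% as higher. At an unadjusted p under 0.05, 6 class I members were higher and 4 class II members lower, against 2.43% of all genes higher and 2.5% lower.

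H2-Aa, H2-Ab1, H2-Eb1 and Cd74 read lower on average in the knockouts, with the largest differences of the 51 members, and none passed the test over all genes (limma). H2-Aa, the alpha chain of the I-A molecule, read 5.38, 7.23, 7.27 and 5.95 in controls 1 to 4 and 5.30, 5.54, 4.997 and 2.68 in knockouts 1 to 4. Controls 2 and 3 lay highest and knockout 4 lay below the level of absent transcripts, while control 1 lay below knockout 2, so the groups overlapped. The difference was -1.83 (SE 0.61, 95% interval -3.18 to -0.48, limma adjusted p = 0.99), that is 28.1% of the control signal.

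H2-Ab1, the beta chain of I-A, read 6.38, 7.24, 7.29 and 6.74 in controls and 6.04, 6.48, 6.18 and 5.61 in knockouts. Controls 2 and 3 were again highest and knockout 4 lowest, and the overlap came from control 1 and knockout 2. Its difference was -0.84 (SE 0.22, 95% interval -1.33 to -0.34, limma adjusted p = 0.88), or 56.0% of the control signal.

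H2-Eb1, a beta chain of the I-E molecule, read 4.48, 5.23, 5.49 and 4.84 in controls and 4.43, 4.17, 4.67 and 4.01 in knockouts. Control 1 lay within the knockouts and the other 3 controls lay above them. The difference was -0.69 (SE 0.21, limma adjusted p = 0.99). H2-Ea-ps, its partner, is inactive in C57BL/6 mice and read 1.94 on average, among the absent transcripts.

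Cd74, the invariant chain that escorts class II molecules to the endosome, read 4.55, 6.63, 6.48 and 5.25 in controls and 3.62, 4.82, 4.23 and 3.31 in knockouts. The order resembled that of H2-Aa, with controls 2 and 3 at the top and knockout 4 at the bottom. The difference was -1.74 (SE 0.46, 95% interval -2.74 to -0.73, limma adjusted p = 0.88), or 30.0% of the control signal. Cd74 had the smallest p of the 51 members and ranked at place 76 among all 24213 genes.

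**Figure D1:**
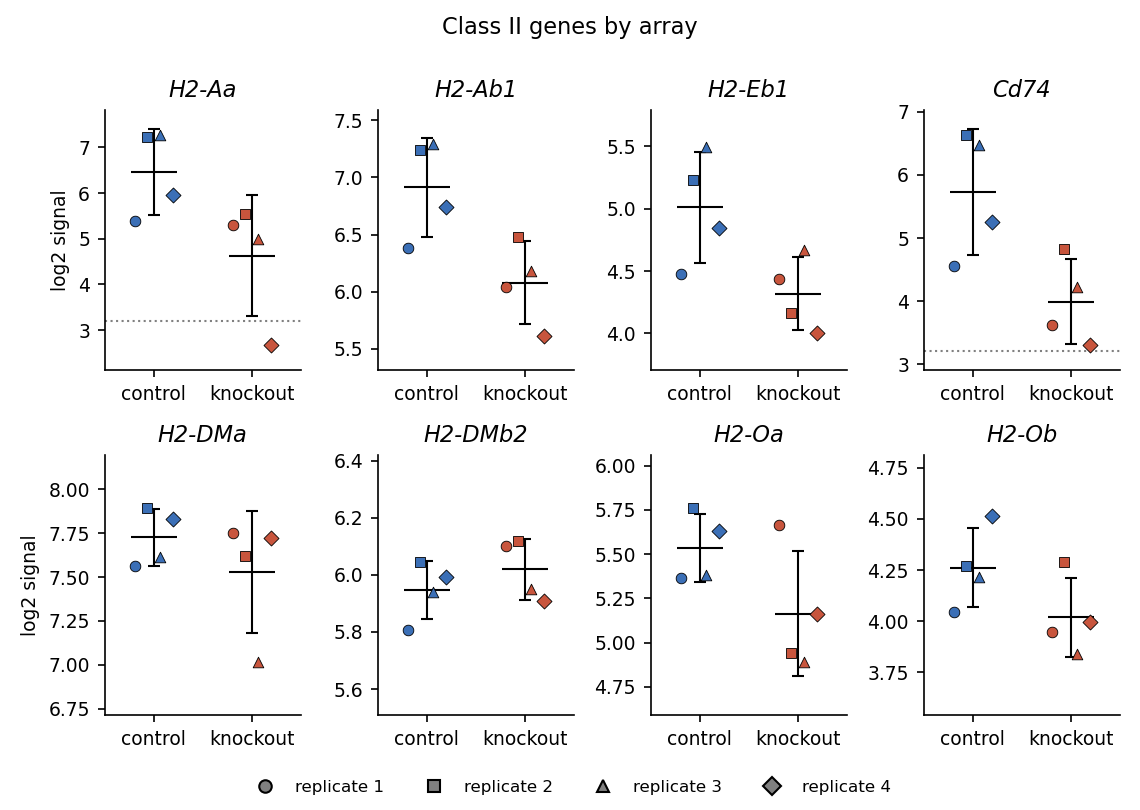
Log2 signal (y axis) of 8 class II genes in controls and knockouts (x axis), 1 point per array with a marker per replicate number; horizontal lines and bars are mean and SD (n = 4), and the dotted line at 3.20 is the level of absent transcripts. H2-Aa, H2-Ab1, H2-Eb1 and Cd74 share controls 2 and 3 as their highest arrays and knockout 4 as their lowest.

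These 4 genes also had a wide spread between mice of 1 group. The pooled SD of H2-Aa exceeded that of 99.9% of genes with a mean within 0.5 of its own, that of Cd74 99.9%, that of H2-Ab1 99.1% and that of H2-Eb1 94.2%. The SD of H2-Aa was 0.94 among controls and 1.32 among knockouts, against a difference of -1.83. Without knockout 4, the array with both sex-linked signals, the difference was -1.18 for H2-Aa, -0.68 for H2-Ab1, -0.59 for H2-Eb1 and -1.51 for Cd74.

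The genes of class II peptide editing had smaller differences. H2-DM removes the Cd74 remnant from class II molecules, and H2-DMa read 7.56, 7.90, 7.61 and 7.83 in controls and 7.75, 7.62, 7.01 and 7.72 in knockouts. Knockout 3 alone was low, and the difference of -0.20 (SE 0.16) became -0.03 without it. H2-DMb2 read 5.81 to 6.05 in controls and 5.91 to 6.12 in knockouts, a difference of 0.07 (SE 0.10), the 1 class II member above 0.

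H2-O restrains H2-DM. H2-Oa read 5.37, 5.76, 5.38 and 5.63 in controls and 5.67, 4.94, 4.89 and 5.16 in knockouts, with 3 knockouts below every control and knockout 1 within the controls. The difference was -0.37 (SE 0.17, limma adjusted p = 1.00). H2-Ob read 4.05, 4.27, 4.22 and 4.51 in controls and 3.95, 4.29, 3.84 and 4.00 in knockouts, a difference of -0.24 (SE 0.13) with knockout 2 above 3 of the controls. H2-Eb2 and the pseudogene H2-Pa did not exceed 3.20.

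Ciita, the transactivator of class II genes, was close to the level of absent transcripts. It read 3.18, 3.04, 3.59 and 3.34 in controls and 3.36, 3.34, 3.28 and 3.16 in knockouts, with 2 control and 3 knockout arrays above 3.20. The difference was -0.002 (SE 0.12, 95% interval -0.27 to 0.27). Of 6 genes of class II proteolysis and turnover, 3 had a difference above 0 and 3 below, with a median of -0.01. Ifi30, a thiol reductase of endosomes, differed by 0.27 (SE 0.16), and March8, a ubiquitin ligase that acts on class II molecules, by -0.19 (SE 0.14). Ctss, the protease that cuts the invariant chain, differed by 0.10 (SE 0.12), and 0 of the 6 passed the test (limma).

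Over the 12 class II members, 11 had a difference below 0 and the median was -0.22, against a median of 0.002 over all genes. Counts over the 12 include members at the level of absent transcripts, as 9 were above it. The 11 include Ciita, at -0.002. Of all genes 50.6% had a difference above 0. The groups did not overlap for 0 of the 12, where 1.54% of all genes had non-overlapping groups with knockouts lower. Without control 1 the groups did not overlap for 4 class II members, where 3.25% of all genes were then non-overlapping and lower, and without knockout 2 likewise for 4, where 3.07% were. Between knockout 3 and controls 1 to 3, which share Y-linked signal, the class II median was -0.37, with 7 of 12 members below 0. Between knockouts 1 and 2 and control 4, which share Xist signal, it was -0.30, with 9 of 12 below 0. Over all genes the medians in these sets were 0.02 and -0.008. In these sets H2-Aa differed by -1.63 and -0.53, H2-Ab1 by -0.79 and -0.48, H2-Eb1 by -0.40 and -0.54 and Cd74 by -1.66 and -1.03.

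Fewer class II cells in a sort and less class II RNA per cell cannot be told apart in these bulk samples. Of the B cell markers 3 of 10 were above the level of absent transcripts (Cd79b, Pax5 and Blk), and Ms4a1, Cd22 and Cd79a were among those at or below it. The mean of the B cell list was 3.01 to 3.25 in controls and 2.99 to 3.12 in knockouts. Cd79b, which had the highest signal of the list (mean 6.96), differed by 0.12 (SE 0.10) and Pax5 by -0.12 (SE 0.14). Cd79a, a chain of the B cell receptor, read 2.09 to 2.29 in controls and 1.78 to 2.00 in knockouts, below the level on every array. Of the dendritic cell markers 3 of 9 were above the level (Ccr7, Fscn1 and Batf3), and Itgax, Zbtb46, Xcr1, Clec9a and Siglech were not. All 9 had a difference below 0, where 50.6% of all genes had a difference above 0. Their median was -0.05, and the lowest value, -0.28, was that of Clec9a, a marker below the level. Their mean was 3.00 to 3.37 in controls and 3.01 to 3.36 in knockouts. Of the macrophage and monocyte markers 7 of 8 were above the level, with a list mean of 5.73 to 5.93 in controls and 5.76 to 6.00 in knockouts. Fcgr1 differed by 0.25 (SE 0.14) and Emr1 by -0.34 (SE 0.20). The T and NK cell list had 3 of 8 above the level and a mean of 3.61 to 3.76 in controls and 3.61 to 3.82 in knockouts. Nkg7 differed by -0.17 (SE 0.08) and Cd8a by -0.11 (SE 0.11). For Nkg7 every knockout lay below every control, as for 1.54% of all genes. Differences above 0 were found for 4 of 10 B cell, 5 of 8 macrophage and monocyte and 5 of 8 T and NK markers. The part of such cells in the class II values was not tested.

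Class I genes had small differences, mostly with knockouts higher. Of the 38 members 29 had a difference above 0 and 9 below, with a median of 0.13, where 50.6% of all genes were above 0. The count includes members at the level of absent transcripts, as 23 of the 38 were above it. H2-K1, a classical heavy chain, read 8.90, 8.98, 9.08 and 9.29 in controls and 9.28, 9.31, 9.26 and 9.35 in knockouts. Controls 1 to 3 lay below every knockout and control 4 lay among them. Its difference was 0.24 (SE 0.10, 95% interval 0.01 to 0.46, limma adjusted p = 1.00), a ratio of 1.18.

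H2-D1, the other classical heavy chain of this strain, read 9.54, 9.63, 9.66 and 9.89 in controls and 9.81, 9.92, 9.75 and 9.97 in knockouts. Control 4 again lay among the knockouts. The difference was 0.18 (SE 0.10, 95% interval -0.04 to 0.41). B2m, the light chain of class I molecules, read 11.16, 11.15, 11.30 and 11.36 in controls and 11.33, 11.35, 11.29 and 11.45 in knockouts, a difference of 0.11 (SE 0.09) with overlapping groups.

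The 7 genes of peptide supply each had a difference above 0, between 0.05 and 0.27. Tap1, a subunit of the peptide transporter, read 6.49, 6.58, 6.49 and 6.64 in controls and 6.67, 6.80, 6.80 and 7.01 in knockouts. Every knockout lay above every control. The difference was 0.27 (SE 0.10, 95% interval 0.05 to 0.49, limma adjusted p = 0.99).

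Tap2, the other subunit, read 5.97, 5.99, 5.97 and 6.23 in controls and 6.17, 6.21, 5.83 and 6.16 in knockouts. Control 4 stood above the other controls and knockout 3 below the other knockouts. The difference was 0.05 (SE 0.11), and it was -0.10 with Xist signal and -0.01 with Y-linked signal as a covariate. Tapbp, which encodes tapasin, read 6.66, 6.84, 6.88 and 6.98 in controls and 7.12, 7.06, 6.93 and 7.02 in knockouts, a difference of 0.19 (SE 0.10). Erap1, an aminopeptidase that trims peptides, read 6.99 to 7.16 in controls and 7.06 to 7.37 in knockouts, a difference of 0.13 (SE 0.10).

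Psmb8, Psmb9 and Psmb10 encode the catalytic subunits of the immunoproteasome, the interferon-inducible form of the proteasome. Psmb10 read 8.68, 8.82, 8.78 and 8.73 in controls and 8.84, 8.83, 8.91 and 8.98 in knockouts, with every knockout above every control. The difference was 0.14 (SE 0.09). Psmb9, which shares the promoter region printed for Tap1, read 9.50, 9.44, 9.48 and 9.61 in controls and 9.68, 9.59, 9.70 and 9.81 in knockouts. Control 4 and knockout 2 overlapped, and the difference was 0.19 (SE 0.09). Psmb8 read 8.94, 8.98, 8.92 and 9.06 in controls and 9.05, 9.06, 9.20 and 9.09 in knockouts, a difference of 0.13 (SE 0.09).

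Their constitutive counterparts Psmb5, Psmb6 and Psmb7 differed by 0.05 (SE 0.09), -0.03 (SE 0.09) and -0.02 (SE 0.09). Of 6 genes of peptide loading and the proteasome activator, 5 had a difference above 0, with a median of 0.05. Tapbpl, which encodes a tapasin-related peptide editor, differed by 0.21 (SE 0.11) and the chaperone gene Canx by 0.08 (SE 0.10). Psme1 and Psme2, subunits of the proteasome activator, differed by 0.07 (SE 0.09) and 0.03 (SE 0.10).

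**Figure D2:**
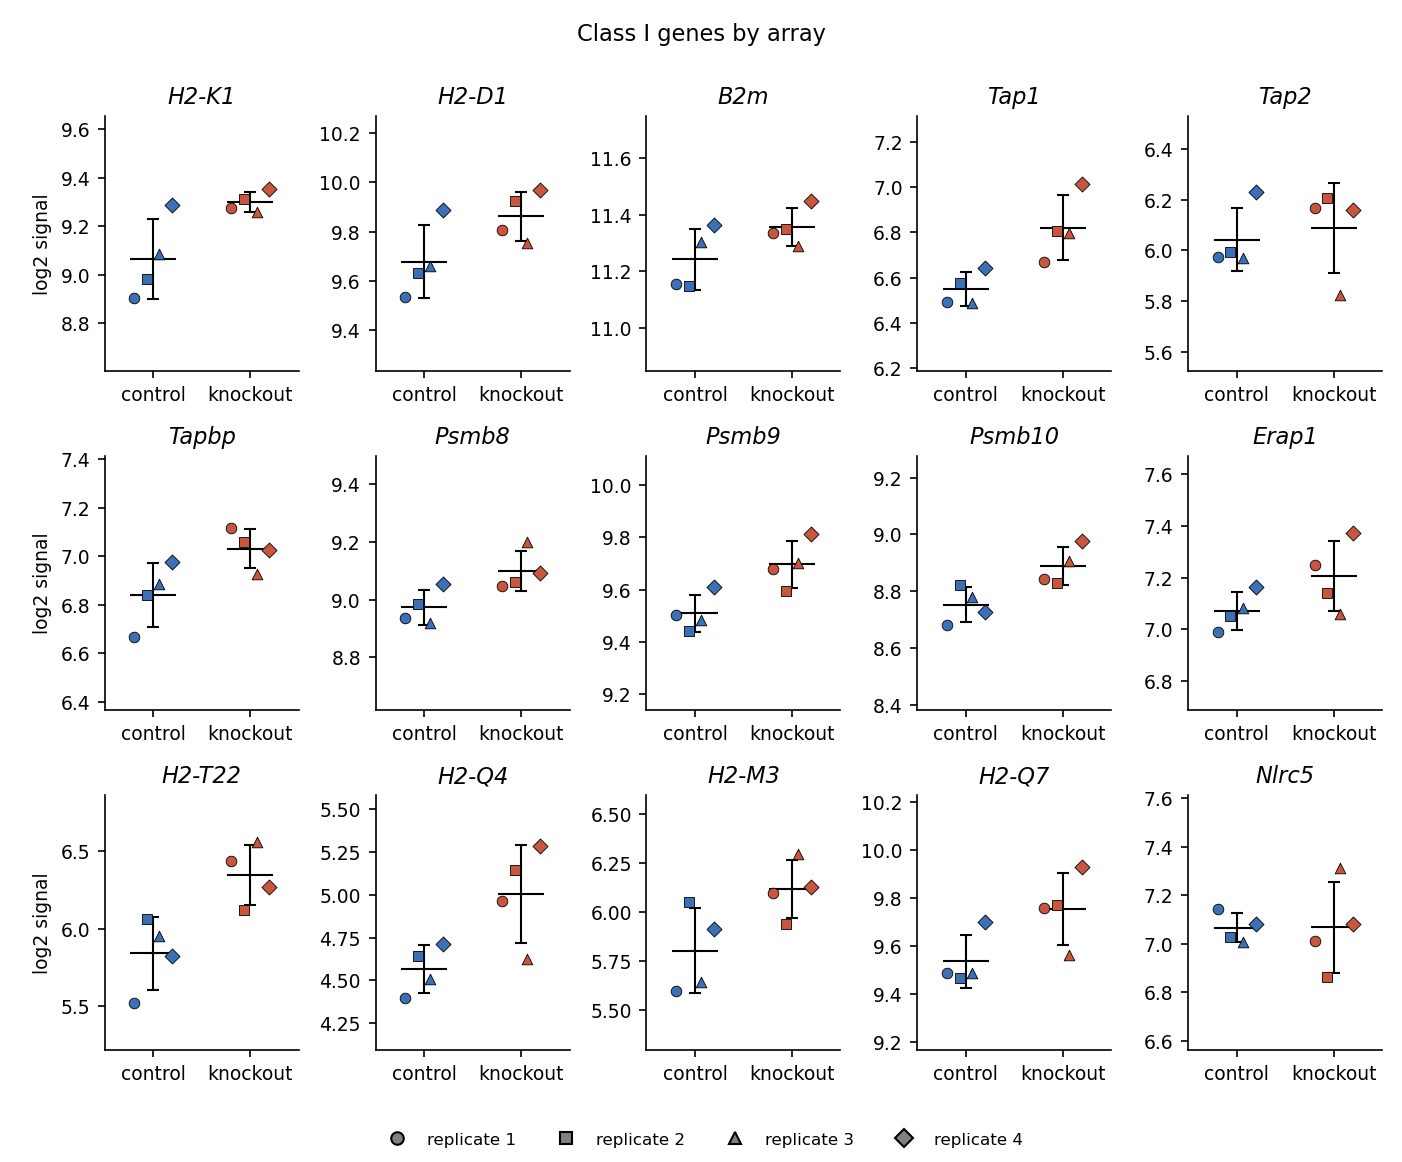
Log2 signal (y axis) of 15 class I genes in controls and knockouts (x axis), 1 point per array with a marker per replicate number; horizontal lines and bars are mean and SD (n = 4). Knockouts lay above every control for Tap1, Psmb10 and H2-T22, and control 4 lay among the knockouts for H2-K1 and H2-D1.

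Among 27 other heavy chain genes and pseudogenes, 12 were above the level of absent transcripts, and probes of these similar sequences can bind transcripts of one another. H2-T22, a ligand of some gamma-delta T cells, read 5.52, 6.06, 5.95 and 5.83 in controls and 6.43, 6.12, 6.56 and 6.27 in knockouts. Every knockout lay above every control. The difference was 0.51 (SE 0.14, 95% interval 0.20 to 0.81, limma adjusted p = 0.88), a ratio of 1.42 and the largest among class I members. The window printed for H2-T22 holds a match to the interferon element core at position -191. B2m and Erap1, whose windows also hold a match, differed by 0.11 and 0.13. The part of this element in the differences was not tested.

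H2-Q4 read 4.40, 4.64, 4.51 and 4.71 in controls and 4.97, 5.14, 4.63 and 5.28 in knockouts, with knockout 3 among the controls. The difference was 0.44 (SE 0.14, limma adjusted p = 0.99). H2-M3, which presents formylated peptides, read 5.60, 6.05, 5.64 and 5.91 in controls and 6.10, 5.94, 6.30 and 6.13 in knockouts. Knockout 2 lay below control 2, and the difference was 0.31 (SE 0.13, limma adjusted p = 1.00).

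Of the 8 H2-Q genes 6 had a difference above 0, with a median of 0.18. H2-Q7 read 9.47 to 9.70 in controls and 9.56 to 9.93 in knockouts, a difference of 0.22 (SE 0.10). H2-Q8 read 5.78 to 6.44 in controls and 6.13 to 7.10 in knockouts, a difference of 0.38 (SE 0.21). H2-Q5 differed by 0.18 (SE 0.12), H2-Q2 by 0.19 (SE 0.12), H2-Q1 by 0.02 (SE 0.11) and H2-Q3 by -0.03 (SE 0.18). H2-T10 differed by 0.13 (SE 0.17), H2-T24 by -0.05 (SE 0.12) and H2-M10.2 by 0.20 (SE 0.15).

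The other 15 heavy chain members did not exceed 3.20 on average. They were H2-Q10, H2-T3, H2-Bl, H2-K2, and all H2-M genes other than H2-M3 and H2-M10.2. H2-M9 was among them, with 2.27 in controls and 2.52 in knockouts and an unadjusted limma p under 0.05, and no difference is drawn from it. H2-Ke6, the member that is no MHC molecule, differed by -0.13 (SE 0.09).

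Nlrc5, the transactivator of class I genes, had 19 features in the table, and the chosen feature read 7.01 to 7.14 in controls and 6.86 to 7.31 in knockouts. Its difference was 0.002 (SE 0.11). Over the 19 features the differences ranged from -0.08 to 0.49 with a median of 0.22, and 16 were above 0. The mean over the features differed by 0.22, so the value for Nlrc5 rests on which feature is read.

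The groups did not overlap for 3 class I members, Tap1, Psmb10 and H2-T22, each with knockouts higher, where 1.36% of all genes were non-overlapping and higher. The gap for Psmb10 was narrow, between control 2 (8.8231) and knockout 2 (8.8285), and its unadjusted limma p was 0.14. Class I values were also read between arrays of like sex-linked signal. Between knockout 3 and controls 1 to 3 the class I median was 0.14 and 31 of 38 members were above 0, and between knockouts 1 and 2 and control 4 it was 0.04 and 25 of 38. Over all genes the medians were 0.02 and -0.008. The first set rests on 1 knockout array, which had the highest median signal of the 8 arrays, 3.94. Both counts include members at the level of absent transcripts. H2-K1 differed by 0.27 and 0.007 in these sets, H2-D1 by 0.15 and -0.02, B2m by 0.09 and -0.02, Tap1 by 0.28 and 0.09 and H2-T22 by 0.72 and 0.45. In the fit that carried Xist signal as covariate, the class I median was 0.12 and the difference was 0.15 for H2-K1, 0.08 for H2-D1, 0.24 for Tap1, 0.15 for Psmb10 and 0.57 for H2-T22. In the fit that carried Y-linked signal, it was 0.13 and the difference was 0.20 for H2-K1, 0.15 for H2-D1, 0.28 for Tap1, 0.16 for Psmb10 and 0.53 for H2-T22. The part of sex-linked signal in the class I values was not tested beyond these fits.

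**Figure D3:**
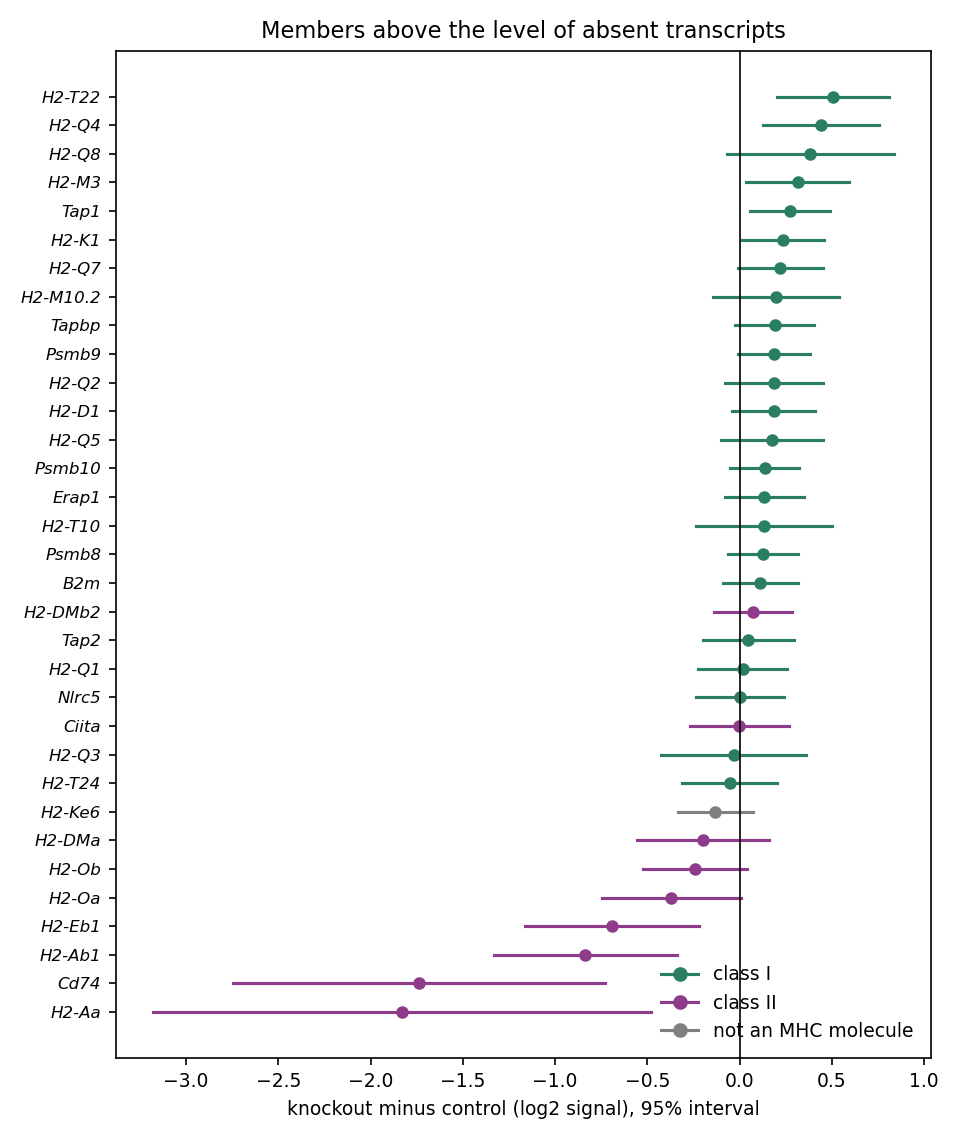
Knockout minus control difference in log2 signal (x axis) with its 95% interval from limma for the 33 members above the level of absent transcripts (y axis), coloured by class. H2-Aa, Cd74, H2-Ab1 and H2-Eb1 lie farthest below 0, and H2-T22 and H2-Q4 farthest above it.

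Genes outside the rule were read for comparison. Of 24 measured genes of the H2 complex that are no MHC molecules, 10 had a difference above 0 and 14 below, with a median of -0.02. Neu1, a lysosomal sialidase, differed by 0.31 (SE 0.12) and Ddr1, a collagen receptor, by 0.16 (SE 0.10), and neither passed the test. Brd2, which lies among the class II genes, differed by -0.08 (SE 0.08) and Daxx by -0.09 (SE 0.11).

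Of 9 measured MHC-like genes with other symbols, 3 had a difference above 0 and 6 below. Hfe, whose product controls iron uptake, differed by 0.27 (SE 0.14) and Cd1d1, which presents lipids to NKT cells, by -0.35 (SE 0.18). Of 15 transcription factors of MHC promoters, 8 had a difference above 0 and 7 below, with a median of 0.0005. Irf9 differed by 0.50 (SE 0.17) and Irf8 by 0.34 (SE 0.12), both with knockouts higher and neither past the test. Rfx5, Rfxap and Rfxank, whose products bind the X box, differed by -0.04, -0.03 and 0.02.

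Interferon-stimulated genes, given here beside class I, had a difference above 0 in 22 of 24, against 50.6% of all genes, with a median of 0.40. Their mean was 4.23 to 4.60 in controls and 4.51 to 4.84 in knockouts, so the groups overlapped. At an unadjusted p under 0.05, 11 of the 24 were higher, against 2.43% of all genes, and for 4 the groups did not overlap with knockouts higher, against 1.36%. Oas1a, an antiviral enzyme gene, differed by 1.11 (SE 0.17) and Oasl2 by 0.75 (SE 0.16). Control 4, the 1 control with Xist signal, was the highest control for both, at 5.20 and 3.81. Knockouts 1 and 2, which share that signal, read 6.17 and 5.92 for Oas1a and 4.00 and 4.79 for Oasl2. For Ifit1, control 4 (3.67) lay above knockouts 1 and 2 (3.38 and 3.38). The part of sex-linked signal in the interferon-stimulated genes was not tested. The part of interferon signalling in the class I values was not tested. No gene of these lists passed the test over all genes (limma, smallest adjusted p 0.36 for Oas1a).

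**Figure D4:**
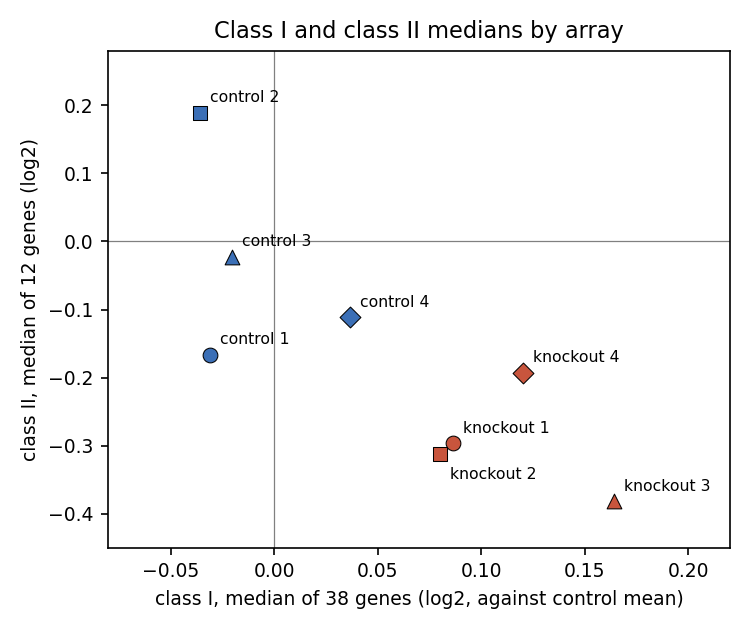
Each array's median deviation from the control mean over the 38 class I members (x axis, log2) and the 12 class II members (y axis, log2), 1 point per array. Knockouts lay between 0.08 and 0.16 for class I and between -0.38 and -0.19 for class II, and controls between -0.04 and 0.04 and between -0.17 and 0.19.

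Per array, the class I median deviation was -0.03, -0.04, -0.02 and 0.04 in controls 1 to 4 and 0.09, 0.08, 0.16 and 0.12 in knockouts 1 to 4. The class II median deviation was -0.17, 0.19, -0.02 and -0.11 in controls and -0.30, -0.31, -0.38 and -0.19 in knockouts. In both classes the arrays of the groups did not overlap, with control 4 nearest the knockouts for class I and control 1 nearest for class II. The class II gap was narrow, between control 1 (-0.166) and knockout 4 (-0.193). Knockout 4 was the lowest array for H2-Aa, H2-Ab1, H2-Eb1 and Cd74, so the class II median does not follow those genes. These medians include members at the level of absent transcripts and carry no test.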

How the data were processed

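RNA of sorted cells from 8 mice was hybridised to Affymetrix Gene ST 1.0 arrays. The authors deposited log2 signals per transcript cluster. The submitters' processing notes name RMA and limma and give no version, while annotation and build are not given in the sources used here. Both tables of deposited values held the same numbers (largest difference 0). Of 28853 features, 1494 had no symbol, and the feature of highest mean was kept per symbol. Groups were compared in limma 3.58.1 (R 4.3.3) without filter or covariates, with Benjamini-Hochberg adjustment over all genes at 0.05. In a two-sided exact permutation test per gene over 70 assignments, the smallest possible p is 0.0286 and the smallest adjusted value was 0.984. The fit was tested on simulated data. Arrays hold no read depth, and 4 per group limit the precision.

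Members, lists and tests were chosen with earlier results of these data known. Values per array are given for 20 of 22 listed genes (H2-T23 and H2-DMb1 were not analysed here), for members whose groups did not overlap and for the 3 members of smallest p in each direction above the level of absent transcripts. Of each other list the 2 genes of smallest p above that level are named, and further genes were chosen after their values were seen. Alternatives changed the replicate block, the arrays used (1 left out), features, signal filter, normalization, table, variance model, weights, sex-linked covariates, level, threshold and members. A fit lacking knockouts 3 and 4 was added after seeing the data.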

Additional observations from a re-analysis of the deposited data

Results flagged for a closer look

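Tap2 stood out in both groups, because 1 array lay far from the other 3. In controls the gap between control 4 (6.23) and the nearest other control was 0.911 of the range of the group. In knockouts the gap between knockout 3 (5.83) and the nearest other knockout was 0.874 of the range. Both are past Dixon's 95% critical value for 4 samples. Of 48 sets of 4 arrays checked, these 2 were past it, and chance flags about 1 in 20 groups. Control 4 was the 1 control with Xist signal. Knockout 3 was the 1 knockout with Y-linked signal and no Xist signal, and it also read lowest of the 8 arrays for H2-DMa (7.01). The part of sex-linked signal in these values was not tested.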

How the results depend on the processing

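No member passed an adjusted p of 0.05 under any of the 20 other fits (limma), or 0.1 in the fit with all arrays. The smallest adjusted p of a member lay between 0.227, with the replicate block, and 1.00, without control 2. At an unadjusted p under 0.05, 6 to 15 members were counted over these fits, against 10. The sign of the class I median (0.13) and of the class II median (-0.22) was kept under every alternative run. With 1 array left out they ranged from 0.11 to 0.15 and from -0.28 to -0.20. With genes under the median signal left out they were 0.18 and -0.53, over fewer members. Over heavy chains alone the class I median was 0.12, and over class II members without Cd74 and Ciita (chains, editing genes and H2-Pa) the class II median was -0.22. The class II median was -0.39 with Xist signal as a covariate, and the cause was not tested.

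The count of members with non-overlapping groups, 3, ranged from 4 to 10 with 1 array left out, was 8 after repeated quantile normalization and 2 with arrays centred on their median. It was 15 without knockouts 3 and 4, where fewer arrays give more such genes (all genes 6.00% higher and 7.77% lower). It was 9 without control 1, 9 without control 4 (all class I), 5 without knockout 1, 10 without knockout 2 and 8 without knockout 3. With 1 array left out, the share of all genes also rose, to between 2.31% and 3.40% higher and between 2.39% and 3.40% lower, against 1.36% and 1.54%. Tap2 changed sign with Xist (-0.10) or Y-linked signal (-0.0136) as a covariate. Nlrc5 changed sign with centred arrays (-0.0049), array weights (-0.0272) and without knockouts 3 and 4 (-0.13), and ranged from -0.0801 to 0.0694 with 1 array left out. Ciita changed sign without knockouts 3 and 4 (0.0616) and ranged from -0.0823 to 0.0986 with 1 array left out. Of the 22 members recomputed under each alternative, those other than Tap2, Nlrc5 and Ciita kept their sign. With 1 array left out, H2-Aa lay between -2.19 and -1.18, Cd74 between -2.13 and -1.43, H2-T22 between 0.40 and 0.58 and Tap1 between 0.21 and 0.32. Under the other alternatives H2-Aa lay between -2.18 and -1.04 and Cd74 between -1.99 and -1.51. There H2-T22 lay between 0.44 and 0.57 and Tap1 between 0.19 and 0.29. H2-DMa was -0.03 without knockout 3.

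Same-numbered controls and knockouts did not deviate together (correlations of deviations over all genes -0.10, 0.12, 0.02 and 0.03), so the numbers were not taken as pairs. With the replicate block the class I median was 0.13, the class II median -0.22, and 0 members passed. The models with a block, a covariate, weights or another variance give no count of overlap, which does not use them. The other level of absent transcripts left 33 members above it.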
